A study of Mus musculus with 6 samples.

Results

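Genes of DNA replication origins and forks were examined in 32D, a cell line of mouse bone marrow origin that needs interleukin-3 (IL-3) to grow. The 44 genes are members by their known function, and no measured value enters that rule, although the set was proposed with earlier results of these data known: the helicase and its loaders, the polymerases, the sliding clamp, and factors that handle single strands, Okazaki fragments and new chromatin. The platform annotation gave 43 of them at least 1 probe set of their own, of 18193 genes so represented, and all 43 could be tested, of 9641 tested genes. Chaf1a, the large subunit of the histone chaperone CAF-1, had no probe set under its symbol alone and was not analysed here. The 2 groups were 3 mock-transduced samples, labelled with the retroviral vector MSCVpuro, and 3 samples transduced with the fusion gene Nup98::Nsd1. Both groups are 32D cells, which the labels trace to bone marrow of C3H/HeJ mice infected with Friend leukemia virus. The labels say neither whether the transduced cells were a pool or 1 clone nor whether samples were separate cultures. The p-values therefore cover only the spread among these 6 samples, which may be technical. Each RNA sample was read on an Affymetrix whole-genome mouse array, and the authors' MAS5 signal is a scaled, linear brightness of a probe set.

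Replication is prepared in G1, when the origin recognition complex (Orc1 to Orc6) with Cdc6 and Cdt1 loads rings of the helicase subunits Mcm2 to Mcm7 onto DNA, a step called licensing. In S phase Cdc45 and the GINS complex join the ring to form the active helicase, and primase, the polymerases alpha, delta and epsilon, the clamp PCNA and its loader RFC copy the strands. Many of these genes are known targets of E2F transcription factors, whose activity rises at the passage from G1 to S.

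Nearly all replication genes were lower in Nup98::Nsd1 cells. Of 43 tested members, 41 fell and 2 rose at an adjusted p of 0.05 in limma, while 29.5% of all tested genes fell and 42.9% rose. Of all calls, 59.3% were thus higher as deposited, but 42.5%, 44.9% and 27.4% were higher when arrays were centred on the 75th percentile, on the median or on hybridization controls; the 41 member falls were called in each case. The median log2 fold change, Nup98::Nsd1 over mock, was -0.64 over the members and 0.12 over all tested genes. A fall of at least 2-fold was seen in 10 members, namely Cdc6, Mcm4, Gins1, Slbp, Mcm6, Mcm2, Fen1, Pole2, Gins2 and Pcna, against 2.6% of all tested genes. The 2 that rose were Pole, the catalytic subunit of polymerase epsilon, and Orc5. The 3 arrays of a group did not overlap those of the other for 43 of 43 members, a separation seen for 75.1% of all tested genes. An exact two-sided permutation of 3 arrays against 3 cannot give a p below 0.1 for a single gene. In RNA from bulk cells, fewer cells in a phase that expresses a gene and less of its RNA per cell cannot be told apart.

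**Figure D1:**
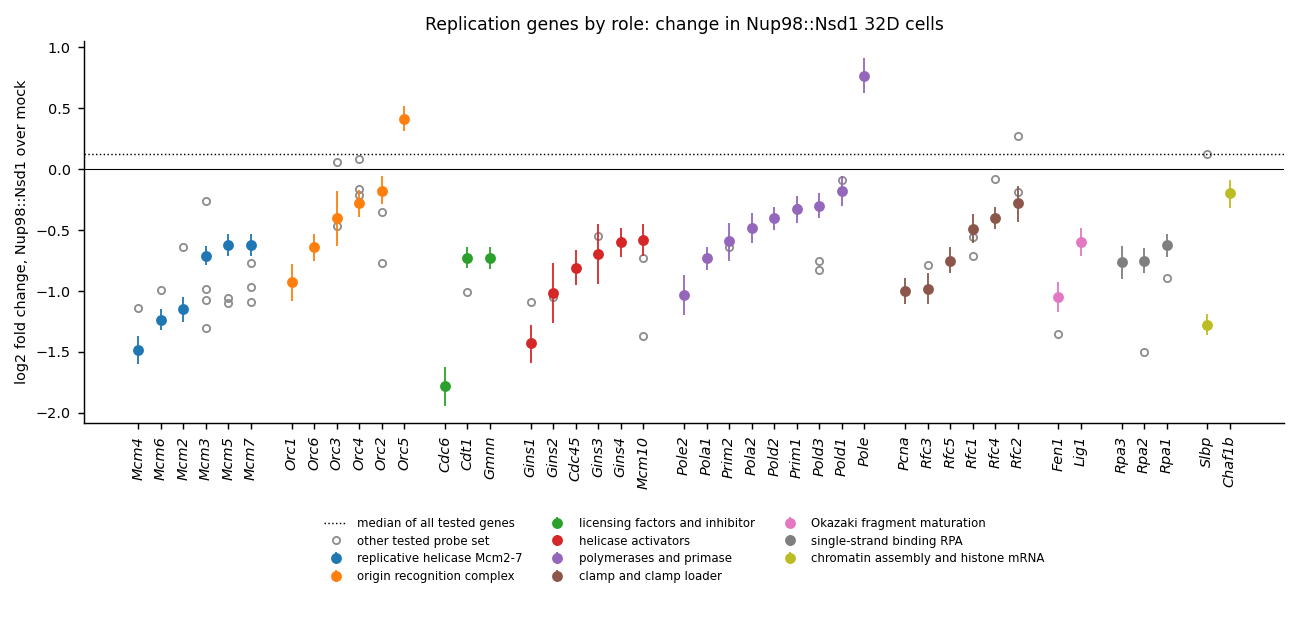
The vertical axis gives the log2 fold change of each tested member, Nup98::Nsd1 over mock, with members sorted within 9 roles; filled points are the probe set taken for the gene with its 95% confidence interval, and open circles are its other tested probe sets. Of the 43 filled points, 41 lie below 0, from Cdc6 at -1.78 to the least changed near -0.18, and only those of Orc5 and Pole lie above it.

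For genes with several tested probe sets, the one of highest mean log2 signal stood for the gene. All 43 of these were called Present (detected) by MAS5 on all 6 arrays, so no member passed the detection filter through one group alone. The members were measured with a small replicate spread, a median SD of the log2 signal of 0.044 over the mock arrays and 0.063 over the Nup98::Nsd1 arrays, against 0.078 and 0.077 over all tested genes. Across the arrays, 45.0% to 45.8% of probe sets were called Present in mock and 47.5% to 48.2% in Nup98::Nsd1 samples. The ratio of 3' to 5' control signal, which reflects RNA and labelling quality, was 1.15 to 1.2 on mock and 1.45 to 1.5 on Nup98::Nsd1 arrays for Actb, and 0.742 to 0.77 and 0.799 to 0.843 for Gapdh. Its part in the falls was not tested. Of 11 markers expected in 32D myeloid progenitors, 8 were Present on every array, among them Mpo, Prtn3, Ctsg and Spi1, while Kit and Cd34 were Absent throughout. Of the 9 that were tested, 4 fell and 4 rose, beside 29.5% and 42.9% of all tested genes. The summed signal of the list ran from 62510 to 66446 in mock and from 39225 to 40139 in Nup98::Nsd1 cells, and the part of that difference in the falls was not tested. Of 4 measured erythroid markers, 3 were Present on every array (Hba-a2, Epor and Gata1) and 3 fell, their sum running from 4159 to 4303 in mock and from 2611 to 2998 in Nup98::Nsd1 cells; their part was not tested either. All 5 measured T cell markers (Cd3e, Cd3d, Cd3g, Cd4 and Cd8a) were Absent on all 6 arrays, as were 3 of 5 B cell markers (Cd79a, Pax5 and Ebf1) and 3 of 5 endothelial ones (Cdh5, Kdr and Tek). Cd79b and the endothelial marker Pecam1 were Present on all 6. Of the endothelial markers 2 were tested, of which 1 fell and 1 rose. Of 6 fibroblast markers, 3 (Col1a2, Pdgfra and Dcn) were Absent on all 6 arrays, 0 were Present on all 6 and 0 were tested.

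The promoters of these genes were read after the members' common fall was known. The list was set by function, and many of its genes are known E2F targets. The share of E2F sites among them would be the same whatever the direction of change, and their part in the falls was not tested. RefSeq promoter windows of the GRCm38.p6 assembly, from 250 bases before to 50 after the annotated start, were found for 36 of the 44 members; Gins1, Gins2, Gins4, Gmnn, Mcm4, Pole, Prim2 and Rfc2 had none in the table used. Each window was searched on both strands for the E2F sites TTTCCCGC, TTTCGCGC, TTTGCCGC and TTTGGCGC, counted as 1 set in which matches may overlap. At least 1 was found in 15 of 36 member windows (41.7%), against 2.6% of all 27025 genes with a window and 5% of the 7937 tested genes with one. Below are the bases from 200 before to 30 after the start for the 4 members of lowest fold change among those with a match, written 5' to 3' along the gene's strand with the matches in capitals. Cdc6 lies at chr11:98907951-98908180 on the plus strand, Mcm6 at chr1:128359676-128359905 on the minus strand, Pole2 at chr12:69228161-69228390 on the minus strand and Rfc3 at chr5:151651179-151651408 on the minus strand.
Cdc6: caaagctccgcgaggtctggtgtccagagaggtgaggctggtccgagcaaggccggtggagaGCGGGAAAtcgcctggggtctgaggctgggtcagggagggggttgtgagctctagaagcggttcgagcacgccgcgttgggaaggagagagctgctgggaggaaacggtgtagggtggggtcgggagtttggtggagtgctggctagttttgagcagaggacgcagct
Mcm6: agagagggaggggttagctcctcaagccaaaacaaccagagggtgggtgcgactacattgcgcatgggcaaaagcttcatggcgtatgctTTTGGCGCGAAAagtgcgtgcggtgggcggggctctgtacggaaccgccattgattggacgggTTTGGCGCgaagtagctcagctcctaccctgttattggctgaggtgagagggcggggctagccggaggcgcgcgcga
Pole2: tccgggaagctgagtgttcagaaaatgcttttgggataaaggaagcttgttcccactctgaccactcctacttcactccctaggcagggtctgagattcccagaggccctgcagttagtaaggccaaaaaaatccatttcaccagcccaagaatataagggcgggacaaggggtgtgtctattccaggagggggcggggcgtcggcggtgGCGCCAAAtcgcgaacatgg
Rfc3: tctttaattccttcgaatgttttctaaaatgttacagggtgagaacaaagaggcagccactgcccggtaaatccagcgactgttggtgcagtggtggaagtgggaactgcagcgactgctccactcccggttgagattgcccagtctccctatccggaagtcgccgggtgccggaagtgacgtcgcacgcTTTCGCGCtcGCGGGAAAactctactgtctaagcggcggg

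In Cdc6 the single match, TTTCCCGC on the opposite strand, spans positions -138 to -131 from the start. Mcm6 has 3: a pair on opposite strands that overlap between -110 and -99, and another from -47 to -40. In Rfc3 one lies from -10 to -3 and one from 1 to 8, and in Pole2 the match lies from 11 to 18, inside the transcript. The other members with a match were Mcm3, Mcm5, Mcm7, Orc1, Orc3, Cdt1, Gins3, Pola1, Pold1, Pold3 and Lig1. Of the 10 members at least 2-fold lower, Cdc6, Mcm6 and Pole2 held a match. Slbp, Mcm2, Fen1 and Pcna held none, and Mcm4, Gins1 and Gins2 had no window. The 15 members with a match had a median log2 fold change of -0.71 (-1.78 to -0.18), and the 20 tested members whose window held none had -0.60 (-1.28 to 0.41), so the ranges overlapped widely. The CCAAT box, the letters CCAAT on either strand, was found in 63.9% of member windows, 41.1% of all and 43.3% of those of tested genes. The CHR element, TTTGAA or TTCGAA, was found in 19.4%, 21.7% and 16.5%. A match is a stretch of letters and no measure of binding, and a window with none says only that these letters are not in it.

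Licensing factors held the largest fall of the whole set. Cdc6, the ATPase that joins the origin recognition complex to load the helicase, had signals of 1942, 2021 and 2311 on the mock arrays and 625, 624 and 575 on the Nup98::Nsd1 arrays. The lowest mock array thus lay far above every Nup98::Nsd1 array, and the fitted level was 3.43-fold lower (log2 fold change -1.78, SE 0.073, adjusted p = 2.81e-09). Cdt1, which brings the helicase to the origin with Cdc6, and Gmnn (geminin), the protein that holds Cdt1 inactive after licensing, fell by the same amount. Cdt1 went from 9841 ± 190 to 5940 ± 116 and Gmnn from 6185 ± 180 to 3727 ± 79.0 (mean ± SD, n = 3 each), each 1.66-fold lower. The log2 signal of Cdt1 minus that of Gmnn, a pair not set in advance, stayed between -0.02 and 0.02 of its mock mean on every array. Their equal fold changes already place the mean difference near 0. A second probe set of Cdt1 fell further, to a log2 fold change of -1.01, so the equal fall holds only for the probe set taken for the gene.

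All 6 subunits of the helicase ring fell, with a median log2 fold change of -0.93. Mcm4 read 8470, 9317 and 9482 in mock and 3137, 3217 and 3383 in Nup98::Nsd1 cells, 2.80-fold lower (log2 fold change -1.48, SE 0.051, adjusted p = 9.58e-10). Mcm6 read 8220, 8006 and 8428 against 3503, 3508 and 3451, 2.36-fold lower (adjusted p = 4.9e-10). Mcm2 read 5603, 5484 and 5702 against 2521, 2397 and 2644, 2.22-fold lower (adjusted p = 2.52e-09). For each of these subunits the groups were far apart compared with the spread inside them. Their other tested probe sets fell less, to -1.14 for Mcm4, -0.99 for Mcm6 and -0.64 for Mcm2. The order of the 6 subunits thus depends on the probe set taken. Mcm3 read 8833, 8775 and 8772 against 5425, 5386 and 5273, 1.64-fold lower, and Mcm5 and Mcm7 were each 1.54-fold lower. Most other probe sets of these 3 genes gave larger falls. Mcm5 stood at -1.06 and -1.10 at its other 2 probe sets, and Mcm7 at -1.09, -0.97 and -0.77 at its other 3. Mcm3 had 5 tested probe sets, of which 4 fell, from -0.71 to -1.30, and the fifth, at 386 ± 21.8 in mock and 325 ± 49.7 in Nup98::Nsd1 cells, stood at -0.26 (adjusted p = 0.0792).

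The origin recognition complex moved less. It marks origins, and Orc1, its largest subunit, is the one whose level is known to follow the cell cycle most closely. Orc1 fell most, from 1074 ± 41.9 to 564 ± 24.3 (log2 fold change -0.93, adjusted p = 2.19e-07), with no overlap of the groups. Orc6 was 1.56-fold lower. Orc2, Orc3 and Orc4 had log2 fold changes of -0.18, -0.40 and -0.28, and these smaller falls depended on the probe set or the array. Orc2 fell at its 3 probe sets, to -0.77 at the most changed, but the one taken for the gene missed the threshold without the first mock array (adjusted p = 0.0582). Orc3 read 1449, 1350 and 1593 in mock and 1165, 924 and 1255 in Nup98::Nsd1 cells (adjusted p = 0.00416), and 1 of its 3 probe sets stood at 0.06 (adjusted p = 0.743) with overlapping groups. Orc4 read 1893, 1790 and 1781 against 1546, 1494 and 1464 (adjusted p = 0.000407). Of its 4 probe sets, 2 fell, to -0.28 and -0.21, and 2 did not pass, at 0.08 (adjusted p = 0.284) and -0.16 (adjusted p = 0.457); averaged over all 4, Orc4 did not pass (adjusted p = 0.0682).

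Orc5 went the other way. The only probe set annotated to Orc5 alone read 1425, 1461 and 1391 in mock and 1851, 1955 and 1893 in Nup98::Nsd1 cells. This was a rise of 0.41 on the log2 scale (SE 0.049, adjusted p = 1.45e-05). That rise became 0.02 (adjusted p = 0.837) when the arrays were scaled to the hybridization controls, while it was 0.22 to 0.42 under the other scalings. Differences within an array are the same under any scaling by 1 factor per array, though not under quantile normalization; the following are as deposited. Orc1 minus Orc5, a pair chosen after their values were seen, lay between -1.38 and -1.31 from its mock mean on the Nup98::Nsd1 arrays. The mean log2 signal of the Mcm2 to Mcm7 genes minus that of the Orc genes lay between -0.66 and -0.60 from the mock mean on the Nup98::Nsd1 arrays, and between -0.04 and 0.03 on the mock arrays.

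The factors that turn the loaded ring into a moving helicase fell in all 6 cases, with a median log2 fold change of -0.75. Gins1, a subunit of the 4-part GINS complex, read 1877, 1962 and 1769 in mock and 746, 633 and 701 in Nup98::Nsd1 cells, 2.70-fold lower (log2 fold change -1.43, SE 0.071, adjusted p = 1.15e-08). Gins2 read 1590, 1648 and 1458 against 767, 644 and 936, 2.02-fold lower (adjusted p = 7.4e-06), with 1 of its Nup98::Nsd1 arrays above the others. The groups overlapped for neither. Gins3 was 1.62-fold and Gins4 1.52-fold lower, so the 4 subunits fell by unequal amounts. Cdc45, their partner on the ring, went from 1319 ± 81.2 to 755 ± 39.2, 1.75-fold lower. Mcm10, which is needed to start the assembled helicase, was 1.49-fold lower, and another of its probe sets stood at -1.37, where 1 Nup98::Nsd1 array was called Absent.

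**Figure D2:**
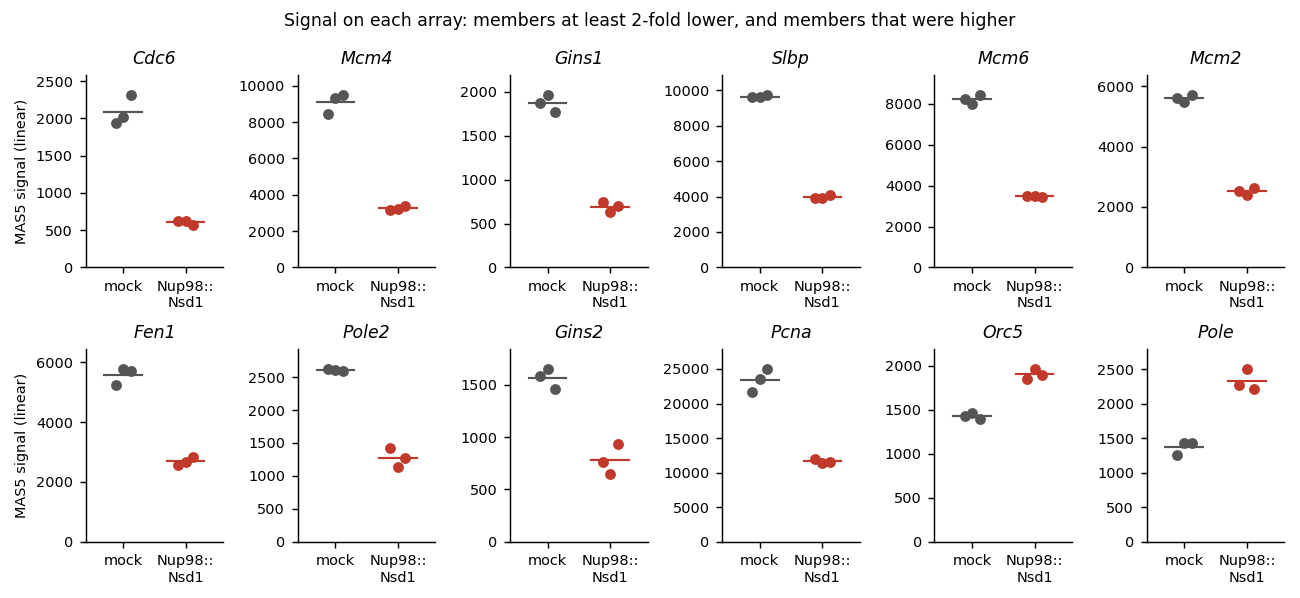
Each panel gives the linear MAS5 signal of 1 gene on each of 3 mock and 3 Nup98::Nsd1 arrays, with points for arrays, lines for group means and each vertical axis starting at 0. The first 10 panels hold the members at least 2-fold lower and the last 2 those that rose, and in no panel do the groups overlap.

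Among the polymerase and primase members only Pole rose, opposite to Pole2 of the same enzyme. Pole2, the second subunit of the leading-strand polymerase epsilon, read 2617, 2616 and 2591 in mock and 1431, 1132 and 1273 in Nup98::Nsd1 cells, 2.05-fold lower (adjusted p = 1.95e-07). Pole, the catalytic subunit of the same enzyme, read 1260, 1431 and 1432 in mock and 2273, 2500 and 2222 in Nup98::Nsd1 cells, 1.70-fold higher (log2 fold change 0.76, SE 0.066, adjusted p = 9.76e-07). Every Nup98::Nsd1 array was above every mock array for Pole and below every one for Pole2. The log2 signal of Pole2 minus Pole, a pair chosen after their values were seen, lay between -2.07 and -1.59 from its mock mean on the Nup98::Nsd1 arrays. Pole has 1 probe set annotated to its symbol alone, so no second one was read for its rise. That rise stood between 0.36 and 0.78 over the 5 scalings tried and passed in each.

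Polymerase alpha and primase, which lay the primers, fell moderately. Pola1, the catalytic subunit, was 1.66-fold lower (3432 ± 58.8 to 2065 ± 43.1), Prim2 1.51-fold, Pola2 1.40-fold and Prim1, the primase catalytic subunit, 1.26-fold lower. Of polymerase delta, the lagging-strand enzyme, 3 subunits are members. The subunit Pold2 was 1.32-fold lower and Pold3 1.23-fold lower, with -0.83 and -0.75 at its other 2. The catalytic subunit Pold1 read 1709, 1787 and 1688 in mock and 1532, 1606 and 1451 in Nup98::Nsd1 cells, 1.13-fold lower (log2 fold change -0.18, adjusted p = 0.0124). Its other probe set, at -0.09 (adjusted p = 0.171), had overlapping groups, and without the second mock array the first missed the threshold as well (adjusted p = 0.057).

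Pcna, the ring-shaped clamp that tethers polymerases to DNA, read 21614, 23547 and 24928 in mock and 12008, 11391 and 11576 in Nup98::Nsd1 cells. These groups stood far apart, at 2.00-fold lower (log2 fold change -1.0, SE 0.052, adjusted p = 1.66e-08). All 5 subunits of RFC, the complex that opens the clamp and loads it, fell as well but unequally. Rfc3 was 1.97-fold lower, from 1681 ± 50.5 to 853 ± 47.4, and Rfc5 1.68-fold lower. Rfc1, the large subunit, was 1.40-fold lower. Rfc4 read 3732, 3621 and 3664 in mock and 2834, 2797 and 2723 in Nup98::Nsd1 cells, 1.32-fold lower, while its other probe set, at -0.08 (adjusted p = 0.19), had overlapping groups. Rfc2 read 2734, 2751 and 2993 against 2436, 2092 and 2445, 1.22-fold lower (adjusted p = 0.00216). Of 3 Rfc2 probe sets only this one was called, and the others stood at -0.19 and 0.27; averaged over all 3, Rfc2 did not pass (log2 fold change -0.07, adjusted p = 0.308).

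Fen1, the nuclease that trims the flaps of Okazaki fragments, read 5251, 5761 and 5707 in mock and 2567, 2666 and 2842 in Nup98::Nsd1 cells, 2.07-fold lower (adjusted p = 1.24e-08). Its second probe set fell further, to -1.35. Lig1, the ligase that seals the fragments, was 1.51-fold lower (3436 ± 91.7 to 2272 ± 139). The 3 subunits of RPA, which coats single-stranded DNA, fell by like amounts: Rpa3 was 1.70-fold, Rpa2 1.68-fold and Rpa1 1.54-fold lower. Rpa2 had a second probe set at -1.50, against the -0.75 of the one taken for the gene, and Rpa1 had one at -0.89, against -0.62. The like amounts thus hold only for the probe sets taken for the genes.

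Slbp, which binds the stem-loop of histone mRNAs in S phase, read 9590, 9618 and 9720 in mock and 3939, 3901 and 4083 in Nup98::Nsd1 cells. The arrays of each group lay close together and the level was 2.43-fold lower (log2 fold change -1.28, SE 0.038, adjusted p = 3.26e-10). A second probe set of Slbp, at 332, 382 and 351 in mock and 394, 424 and 345 in Nup98::Nsd1 cells, stood at 0.12 (adjusted p = 0.317) with overlapping groups. Chaf1b, the middle subunit of CAF-1, was 1.15-fold lower (adjusted p = 0.00511).

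Counted by probe set, 72 of 83 tested member probe sets fell, 2 rose and 9 did not pass, while 27.6% of all tested probe sets fell and 42.3% rose. The 2 that rose were again those of Pole and Orc5. Another 11 member probe sets were too rarely Present to be tested. Of the 83, 81 were Present on all 6 arrays. The other 2, of Gins1 and Mcm10, entered the test only through the mock group, where they are high. Both count among the 72 and toward the genes that fell at every probe set. Of 26 members with several tested probe sets, 19 fell at every one and 7 had probe sets that disagreed, namely Mcm3, Orc3, Orc4, Pold1, Rfc2, Rfc4 and Slbp. Among the 19, the brightest probe set was the least changed one in 12.

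Scaling to 1 factor per array shifts all genes alike, while quantile normalization moved members unequally: Gins3 went from -0.70 to -0.90 and Mcm2 from -1.15 to -1.05. As deposited, the median log2 fold change of all tested genes was 0.12, and it became 0.01 when the arrays were quantile normalized, -0.08 and -0.05 when they were centred on the 75th percentile or the median, and -0.28 with scaling to the hybridization controls. Relative to that median, the members' median was -0.76 as deposited and with each of the last 3 scalings, and -0.62 after quantile normalization. Under each of the 5, 41 members lay below the median of all tested genes and 41 passed the threshold downward. The number at least 2-fold lower rose from 10 to 25 with scaling to the hybridization controls.

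**Figure D3:**
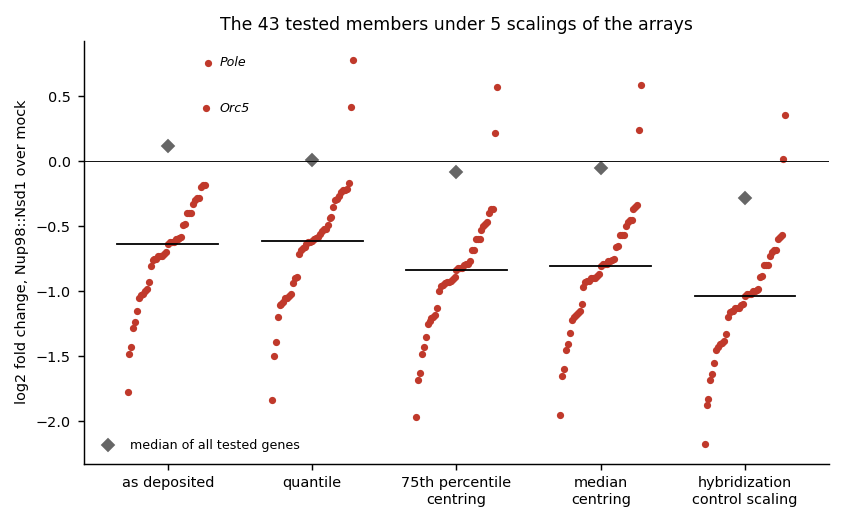
The vertical axis gives the log2 fold change, Nup98::Nsd1 over mock, of the 43 tested members (points, sorted within each column) under 5 scalings of the arrays; black lines are the members' medians and diamonds the medians of all tested genes. The members' median runs from -0.61 to -1.04 and lies below that of all tested genes in each column, and Orc5 comes down to 0.02 in the last.

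Other genes of the same process, in 6 lists that hold no member, fell less uniformly. Of 69 tested companion genes, 44 fell, 14 rose and 11 did not pass, with a median log2 fold change of -0.37, against the 29.5% of all tested genes that fell and the 42.9% that rose. Under the other 4 scalings 42 to 61 companion genes fell and 5 to 11 rose. Of 11 origin firing kinases and factors, 6 fell and 2 rose. Topbp1, a scaffold that helps recruit Cdc45 and GINS, was 1.68-fold lower and Mcmbp, which binds MCM proteins, 1.56-fold lower. Ticrr (treslin), which works with Topbp1, rose 1.75-fold and the helicase Recql4 1.70-fold, and both passed under all 5 scalings. Of 14 fork protection and checkpoint genes, 9 fell and 3 rose, led by Tipin at 2.10-fold and Rad1 at 1.89-fold lower. Timeless, the partner of Tipin, stood at 0.22 and Atrip at 0.35 as deposited, and neither passed upward under another scaling; with hybridization control scaling Timeless was called lower, at -0.18.

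Of 16 other fork subunits and enzymes, 12 fell and 2 rose, against 29.5% and 42.9% of all tested genes. Ung, the glycosylase that removes uracil from DNA, went from 938 ± 52.2 to 229 ± 24.6, 4.11-fold lower (adjusted p = 9.63e-09), and the nuclease Exo1 was 2.17-fold lower. The small polymerase epsilon subunits Pole3 and Pole4 stood at -0.79 and -1.12 and fell as Pole2 did. Pold4, the smallest subunit of polymerase delta, rose 1.83-fold, and Top2a stood at 0.20, a call that turned to lower, at -0.20, with hybridization control scaling. Pole3 and Pole4 are named for their partner Pole2 and were chosen after their values were seen.

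Of 10 histone chaperones and maintenance methylation genes, 8 fell and 1 rose, against 29.5% and 42.9% of all tested genes. Hells, a chromatin remodeller, was 2.74-fold lower and Hat1, which acetylates new histone H4, 1.95-fold lower. Rbbp7, the gene that rose, stood at 0.13 and turned to lower, at -0.26, with hybridization control scaling. Of 10 genes for E2F factors and their DP partners, 5 fell and 3 rose, against the same shares of all tested genes. Tfdp1, the main DP partner, read 8947 ± 50.9 in mock and 3581 ± 44.8 in Nup98::Nsd1 cells, 2.5-fold lower (adjusted p = 2.27e-10), and E2f6, a repressor of the family, was 1.72-fold lower. E2f5, another repressor, rose 2.38-fold and Tfdp2 1.36-fold, the latter no longer called with hybridization control scaling (0.05).

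**Figure D4:**
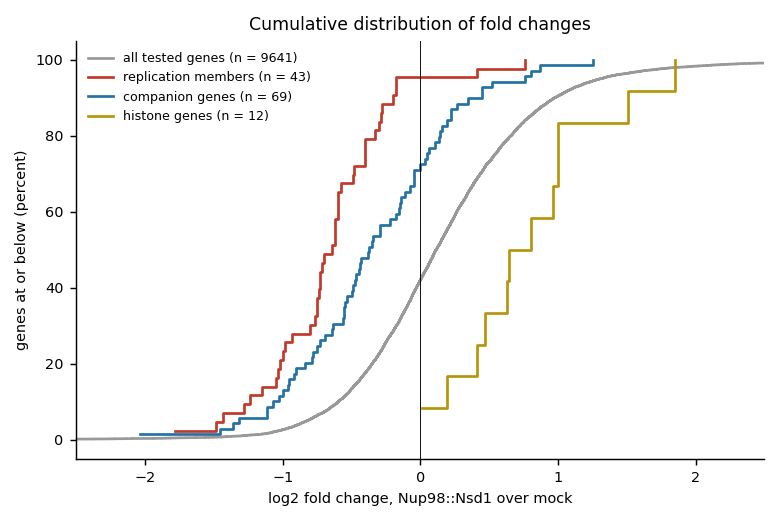
Curves give the percent of genes at or below each log2 fold change, Nup98::Nsd1 over mock, for 9641 tested genes, 43 replication members, 69 companion genes and 12 histone genes. The medians run from -0.64 for the members through -0.37 for the companions and 0.12 for all tested genes to 0.72 for the histone genes. The histone genes include H2bc18 and H3f3a, which entered the test only through the Nup98::Nsd1 group, where they are high.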

How the data were processed

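RNA of 6 samples was measured on Affymetrix whole-genome mouse arrays. The authors processed the arrays with MAS5, per the submitters' processing notes, and per the file headers deposited for each probe set a scaled intensity on a linear scale, a detection p-value and a call of Present, Marginal or Absent. No source used here states its version or scaling target. The mean signal with the extremes at both ends left out was 500.003 on each of the 6 arrays. The value table of the series held the same intensities, deposited with a largest relative difference of 5e-06.

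Of 45037 non-control probe sets, the platform annotation of 2016 gave 34945 a single symbol and 932 several, and 9160 are unlisted in it; 34741 symbols were renewed by Entrez identifier through a RefSeq table. Signals under 1 were set to 1 and taken to log2. Detection on the 3 arrays of either group was required, and the 20494 probe sets left were fitted with limma 3.58.1 in R 4.3.3 (linear model, eBayes with an intensity trend) and adjusted by Benjamini and Hochberg's method; the threshold was 0.05. The fit was tested on simulated data. The number of arrays limits the precision.

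Members, lists and tests were chosen with earlier results of these data known. Per-array values were given for members changed at least 2-fold, called higher or with probe sets that disagree; of each companion list, up to 2 genes called in each direction with the smallest p. The 19 alternatives comprised another offset, 2 filters, 4 scalings, the value table, 2 variance models, the replicate block, 2 rules for a gene's probe set and each array left out.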

Additional observations from a re-analysis of the deposited data

How the results depend on the processing

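Of 817 log2 fold changes of the 43 members over 19 alternatives, 810 kept their direction and side of the threshold, 6 kept the direction and lost the call, and 1 reversed. The reversal was Orc4, at 0.08 without probe sets ending _s_at, _x_at or _a_at; the lost calls were of Pold1, Orc5, Orc2, Orc4 and Rfc2, and 38 members kept theirs throughout. With each array left out, 40 to 41 member genes were lower, 2 higher and 7 to 10 at least 2-fold lower; 70 to 72 member probe sets were lower and 2 to 3 higher; 39 to 43 companion genes were lower and 10 to 13 higher; and 2639 to 2741 of all genes were lower and 3910 to 4040 higher. With hybridization control scaling 1 member gene and 1 member probe set were higher, 25 members were at least 2-fold lower, 5 companion genes were higher, and of all genes 5152 were lower and 1940 higher. Companion genes called higher numbered 6 with 75th percentile centring and 7 with median centring. The share of calls over all genes that were higher was 59.3% as deposited and 27.4% with hybridization control scaling. With the replicate number as a block, 41 member genes were lower and 2 higher, 72 and 2 member probe sets, 44 and 13 companion genes, and 2815 and 4126 of all genes. Deviations of same-numbered arrays from their group means correlated at -0.017, -0.011 and 0.021, so no common effect of the replicate number was visible. This check cannot tell how the samples were cultured or hybridized.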

Other observations

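Of 18 listed histone genes, 12 were tested, of which 10 rose and 2 did not pass in limma, with a median log2 fold change of 0.72; of all tested genes 42.9% rose. H1f2, a linker histone, read 1672, 1708 and 1740 in mock and 4803, 4875 and 4908 in Nup98::Nsd1 cells, 2.85-fold higher (adjusted p = 1.91e-10). H2ax, the variant phosphorylated at DNA breaks, went from 3273 ± 52.8 to 6559 ± 92.0, 2.00-fold higher (n = 3 each, adjusted p = 1.81e-09), and both passed under all 5 scalings. Under the other 4 scalings 5 to 9 of the 12 rose and 1 fell. H2bc18 and H3f3a, which are among the 10 that rose and in the median, were called Absent on all mock arrays. They entered the test only through the group where they are high. The list was set by gene symbol and holds the variants H2ax, H2az1, H2az2, H3f3a and H3f3b beside other histone genes. Its largest rise was that of H3f3b, at 1.85. Which forms of histone mRNA the probe sets read was not tested.

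Of 8 tested genes listed for licensing control by ubiquitin ligases, 4 fell and 3 rose, against 29.5% and 42.9% of all tested genes. Those that fell were Cul4a, Cul4b, Dtl and Skp2, and those that rose were Cdc20, Fzr1 and Fbxo5. With 75th percentile or median centring 5 fell and 1 rose, and with hybridization control scaling 7 fell and 1 rose. Skp2, which marks Cdt1 and other substrates for degradation, was 2.57-fold lower (2587 ± 85.4 to 1006 ± 33.4) and Dtl, the substrate receptor that acts on Cdt1 bound to PCNA, 2.04-fold lower. Cdc20, an activator of the anaphase-promoting complex, rose 1.43-fold and passed under all 5 scalings. Fbxo5, an inhibitor of that complex, stood at 0.23 as deposited and was called lower, at -0.17, with hybridization control scaling.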
